A study of Mus musculus with 6 samples.

Results

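Serpina3n, Dusp26, Clu, Gpnmb, Cyp2d22 and Chrdl1 are 6 mouse genes whose RNA was far more abundant at postnatal day 60 (P60) than at birth (P0) in the non-myelinating Schwann cells of the sciatic nerve. They were chosen by that measured P60 over P0 difference, with no stated threshold, so the difference itself is given here as a description and carries no test. They are 6 of the 52081 genes shared by the count tables, matched by Ensembl identifier. Sciatic nerves of C57BL/6 mice were dissociated with enzymes and sequenced as single cells, 1 library at each of 5 ages (P0, P7, P14, P28 and P60). The labels name no sort for a cell type. Each library pooled animals of both sexes (22, 21, 18, 15 and 13 in the order of ages). Ages are therefore compared without replicates, and the 95% intervals beside levels, shares and ratios are exact and cover counting error only. The study asked how non-myelinating Schwann cells come to enclose unmyelinated axons during this period, and the labels give C57BL/6 as the genotype throughout and name no treatment.

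Non-myelinating Schwann cells, also called Remak Schwann cells, hold several thin axons in separate troughs of their membrane, whereas myelinating Schwann cells wrap 1 thick axon each. Both derive from immature Schwann cells that sort axons by size around birth. The genes described here have different roles. Serpina3n encodes a secreted inhibitor of serine proteases that is a common marker of reactive astrocytes, and Clu encodes clusterin, a secreted chaperone and apolipoprotein that also restrains the terminal complement complex. Chrdl1 encodes a secreted antagonist of bone morphogenetic proteins (BMPs), known in the brain as an astrocyte product that promotes synapse maturation. Gpnmb encodes a transmembrane glycoprotein of melanocytes, macrophages and osteoclasts. Dusp26 encodes an intracellular dual specificity phosphatase, and Cyp2d22 a cytochrome P450 of the endoplasmic reticulum.

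The genes lie on different chromosomes of GRCm38 in the GENCODE M21 annotation, and no other annotated gene overlaps any of them. Serpina3n lies at chr12:104406729-104414329 on the plus strand, Dusp26 at chr8:31089471-31097047 on the plus strand and Clu at chr14:65968483-65981547 on the plus strand. Gpnmb spans chr6:49036546-49070929 on the plus strand, Cyp2d22 chr15:82370527-82380260 on the minus strand and Chrdl1 chrX:143285674-143394262 on the minus strand. Of the 60-base words in the last 500 bases of Cyp2d22 coding transcripts, 11.6% also occur in other Cyp2d genes or pseudogenes, so a small part of its counts is uncertain. The other 5 genes shared none with another gene.

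Promoter sequences were at hand for Serpina3n and Gpnmb, whose levels were most alike among the 6 genes. They are shown because no promoter sequence was at hand for the other 4 genes. The sequences are the 250 bases before the RefSeq start (GRCm38.p6), at chr12:104406458-104406707 and chr6:49036268-49036517, both on the plus strand. Capitals mark matches, on either strand, to any of 6 motifs searched.
Serpina3n: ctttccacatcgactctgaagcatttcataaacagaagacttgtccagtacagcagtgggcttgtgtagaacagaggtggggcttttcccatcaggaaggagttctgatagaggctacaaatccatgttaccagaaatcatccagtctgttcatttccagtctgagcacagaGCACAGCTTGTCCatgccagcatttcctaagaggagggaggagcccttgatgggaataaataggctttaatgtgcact
Gpnmb: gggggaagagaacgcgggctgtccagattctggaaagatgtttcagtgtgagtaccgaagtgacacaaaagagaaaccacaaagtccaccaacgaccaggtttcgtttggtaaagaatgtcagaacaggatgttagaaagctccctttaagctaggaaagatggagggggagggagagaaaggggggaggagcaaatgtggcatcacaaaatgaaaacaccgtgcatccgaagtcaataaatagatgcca
The only match was in Serpina3n, to the palindromic glucocorticoid response element, from 78 to 66 bases before the start. That motif is in 0.387% of the 32851 promoter windows of this length. Neither window matches the 5 other motifs. The E-box CACGTG is in 6.02% of windows and the STAT motif TTCNNNGAA in 7.02%. The SOX, AP-1 and TATA box motifs are in 10.7%, 6.75% and 12.4% of windows. A match is a description of letters and not a binding site.

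The 5 libraries held 60763221 to 101441907 unique molecular identifiers (UMIs, each marking 1 counted RNA molecule) and 6997 to 12901 cells after filtering, and pairs of libraries shared 16 to 40 cell barcodes. Cells were clustered without the 6 genes or the genes of the lists used below, and classes were named from markers with the suffix -like. Those with non-myelinating markers (nmSC-like) numbered 1374, 2056, 597, 1376 and 950 from P0 to P60, and those with myelinating markers (mSC-like) 1253, 5726, 395, 477 and 141. Of the 9 nmSC-like markers, all were detected at every age, and their summed level was 3428, 3047, 6690, 7871 and 8773 CPM (UMIs of the genes per 1000000 UMIs of the class, here and below). The markers differed in course: 5 were higher at P60 than at P0, namely Scn7a, a sodium channel gene of these cells (307 and 4562 CPM), Chl1 (180 and 1041), Cdh2 (130 and 586), L1cam (169 and 449) and Gfap, a marker of the mature cells (0.116, which is 1 UMI, and 13.6). Ncam1 was nearly level (891 and 893), and Ngfr (227 and 145), Matn2 (1480 and 1046) and Gfra3 (44.7 and 36.9) were lower at P60. The labels call the cells Schwann cells or glia, but the libraries also held 220 to 3354 mesenchymal-like and 198 to 1756 macrophage-like cells, among other classes. The 11 myelinating markers were also detected in nmSC-like cells at every age, at a summed 8299 to 13404 CPM. Sub-clusters 0, 8, 15, 13 and 16 held most nmSC-like cells from P0 to P60, a different one at each age, and P0 left 38.2% of its cells unnamed. Levels are relative to all UMIs of the class.

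All 6 genes had their highest nmSC-like level at P60, an age of the contrast that chose them, so nothing is read from that count. The share of all genes with their highest level at P60 was not computed. The P14 levels of the 6 genes were between 1.85% (Gpnmb) and 22.9% (Clu) of the P60 level. Their P28 levels were between 30.3% (Gpnmb) and 86.9% (Clu) of it. These percentages describe timing only, since the genes were chosen for a high P60 level. Between P14 and P28, libraries outside the contrast that chose the genes, 6 of 6 were at least 2-fold higher at the later age, against 7.6% of 12133 genes measured. From P7 to P14, also outside it, the count was 5 of 6 (16.7% of all genes). It was 4 of 5 measured genes from P0 to P7 (4.23%) and 3 of 6 from P28 to P60 (3.54%), steps that use the P0 or the P60 library of the choosing contrast, so nothing is read from them. From P0 to P60, the contrast that chose them, it was 6 of 6, beside 15.3% of all genes. The P60 over P0 ratio is the product of the steps between neighbouring ages, so genes chosen for a high ratio tend to rise in some of them. The counts for P7 to P14 and P14 to P28 are thus not independent of the choice and describe timing only. A gene was counted as measured with at least 20 UMIs in both sums together.

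**Figure D1:**
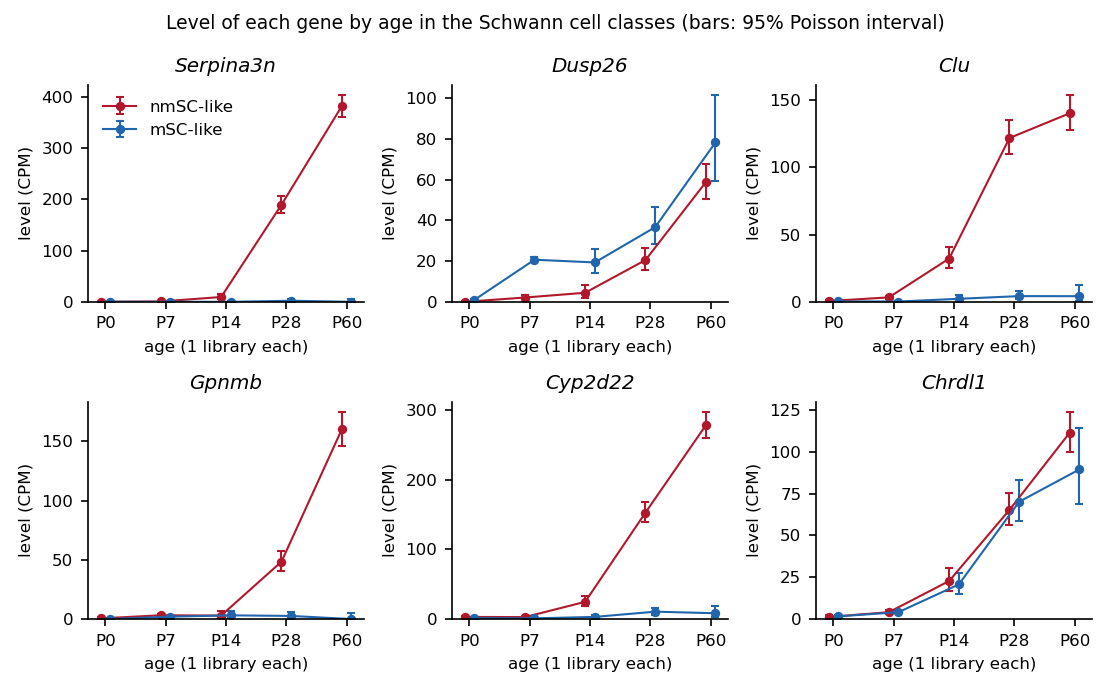
Level of each gene in CPM (y axis, linear) at the 5 ages (x axis) in nmSC-like and mSC-like cells, with exact 95% Poisson intervals as bars. The nmSC-like level is highest at P60 in every panel, and Dusp26 and Chrdl1 are the panels in which the mSC-like level climbs alongside it.

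Serpina3n, the protease inhibitor, was measured in nmSC-like cells at 0.116, 0.702, 9.40, 189 and 382 CPM from P0 to P60. It was nearly absent up to P7, and its largest step between neighbouring ages was from P14 to P28, a ratio of 20.1 (12.8 to 33.7). The P60 over P0 ratio was 3300 with an interval from 591 to 130463, since P0 held a single UMI of it. Clu, the chaperone, was at 0.578, 3.31, 32.2, 122 and 140 CPM. It was the earliest of the set to approach its P60 level, with a P28 over P14 ratio of 3.79 (2.90 to 5.01) and a P60 over P28 ratio of 1.15 (0.9997 to 1.33). Chrdl1, the BMP antagonist, was at 1.27, 4.11, 22.8, 65.3 and 111 CPM. Each of its 4 steps between neighbouring ages had an interval above 1, the last being 1.71 (1.43 to 2.05).

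Gpnmb, the membrane glycoprotein, was at 0.578, 3.21, 2.97, 48.5 and 160 CPM. It was the latest of the set: P7 and P14 did not differ beyond counting error, with a ratio of 0.925 (0.316 to 2.24), and P28 was 16.3-fold (7.32 to 45.2) above P14. Dusp26, the phosphatase, had 0 UMIs at P0 (interval up to 0.427 CPM) and was at 2.11, 4.45, 20.5 and 58.7 CPM from P7 to P60. Its P60 level was 169-fold the P0 level when P0 is set at 3 UMIs over the sum, which is not the limit of an interval. Its P60 over P28 ratio was 2.86 (2.13 to 3.89). Cyp2d22, the cytochrome P450, was at 3.12, 2.81, 24.7, 153 and 278 CPM. It was level between P0 and P7 (ratio 0.899, 0.511 to 1.59) and 8.81-fold (5.44 to 14.5) higher at P14 than at P7.

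P7 was counted with another version of the counting software than the other ages, and this and age cannot be told apart in steps to and from P7. The 10 immediate early and heat shock genes of a list, which respond within minutes to stimuli such as tissue dissociation, were all at least 2-fold higher at P28 than at P14 and at P60 than at P0. Their summed level in the leading nmSC-like sub-cluster of each age was 1337, 10425, 2093, 8948 and 11315 CPM. At P7 the 6 genes were at 0.702 to 4.11 CPM, and that library was counted with another software version. Within P60, nmSC-like cells were put in 3 groups of 317, 317 and 316 by their share of immediate early UMIs, which was 3163, 10009 and 19227 CPM. In the same order Serpina3n was at 369, 332 and 443 CPM, Gpnmb at 166, 164 and 150, and Clu at 163, 123 and 134. Cyp2d22 was at 251, 283 and 301 CPM, Dusp26 at 57.3, 56.5 and 62.4 and Chrdl1 at 117, 125 and 92.6. Serpina3n, Cyp2d22 and, by little, Dusp26 were highest in the cells with the most immediate early RNA. Gpnmb, Clu and Chrdl1 were not. Within P28, Serpina3n was at 133, 202 and 234 CPM and Dusp26 at 10.0, 18.8 and 33.1, and Gpnmb was at 33.1, 49.6 and 63.1 and Cyp2d22 at 117, 156 and 186. At that age these 4 genes were thus higher in cells with more immediate early RNA, while Clu (119, 131 and 115) and Chrdl1 (67.2, 69.4 and 59.0) were not. The part of this activation in the age differences was not tested beyond these values.

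Markers of other cell types within the nmSC-like sums also differed by age. The summed level of 8 mesenchymal markers was 17379 CPM at P0 and 4745 at P60, that of 9 macrophage markers was 27.8 and 99.8, and that of 9 endothelial markers 27.2 and 28.7 (highest at P14, 274), with every marker of these lists detected at both ages. At P60 the mesenchymal-like cells themselves had 55.1 CPM of Serpina3n and 41.9 of Gpnmb, and macrophage-like cells 1.18 and 1.54, all below the nmSC-like levels. Other values at that age were above the nmSC-like ones, with 142 CPM of Chrdl1 in mesenchymal-like cells against 111, and 471 CPM of Clu in endothelial-like cells against 140. The part of these markers in the age differences was not tested beyond these values.

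The next question was whether the 6 genes mark non-myelinating Schwann cells among the cells of the nerve. UMIs were summed per class and library and compared with edgeR's quasi-likelihood test in P7, P14 and P28, which lie outside the contrast that chose the genes. Genes chosen as high in nmSC-like cells at P60 can be high in them at P28 too. The counts of genes called between classes, here and below, are thus not independent of the choice. All 6 genes passed the filter on low counts. Adjusted p-values (Benjamini-Hochberg) are over the 15029 genes fitted. Library was a term, so the p-values rest on how class differences varied between 3 pooled libraries that differ in age. That spread was estimated over 7 classes together, with 12 residual degrees of freedom. Against mSC-like cells, 3 of the 6 were higher (10.1% of all genes were) and 1 lower (9.46%). In mSC-like cells Serpina3n was at 0, 0.136, 0, 2.13 and 0 CPM from P0 to P60, Clu at 0.323, 0.222, 2.25, 4.25 and 4.19, and Cyp2d22 at 1.46, 1.06, 3.15, 10.6 and 8.39. The highest of these values was far below the nmSC-like levels of P28 and P60. The log2 fold change of Serpina3n was 4.49 ± 0.75 (SE, 3 libraries), with an adjusted p of 4.66e-04 by edgeR and a higher level in 3 of 3 libraries. Clu was higher by 4.82 ± 0.96 (adjusted p = 0.00195, 3 of 3 libraries) and Cyp2d22 by 3.45 ± 0.93 (adjusted p = 0.0161, 3 of 3), by the same edgeR test. These 3 genes separated the Schwann classes. Without P28 the count of higher genes was 1, namely Clu, with edgeR adjusted p-values of 0.111 for Serpina3n and 0.0827 for Cyp2d22, and without P14 the Cyp2d22 call was lost (adjusted p = 0.119).

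Dusp26 went the other way within the Schwann lineage. Its level in mSC-like cells was 0.889, 20.7, 19.3, 36.7 and 78.3 CPM from P0 to P60, above the nmSC-like level at every age. The log2 fold change of nmSC-like over mSC-like cells was -2.02 ± 0.58 with an adjusted p of 0.0224 by edgeR, and nmSC-like cells were higher in 0 of 3 libraries. That call was lost without P7 and without P14 (edgeR, adjusted p = 0.0740 and 0.196). At P60 the intervals of the 2 classes overlapped. Dusp26 was thus a gene of both Schwann classes, seen earlier in the mSC-like one.

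Chrdl1 was at nearly the same level in both Schwann classes at every age. In mSC-like cells it was at 1.62, 4.14, 20.7, 70.1 and 89.5 CPM, beside 1.27, 4.11, 22.8, 65.3 and 111 in nmSC-like cells. The log2 fold change was -0.18 ± 0.66 (edgeR, adjusted p = 0.899), which turned to 0.04 with scaling by total UMIs alone. Gpnmb was at 0.0808, 2.04, 3.15, 2.66 and 0 CPM in mSC-like cells, so the classes were near each other at P7 and P14 and far apart at P28 and P60. Over P7, P14 and P28 its log2 fold change was 1.92 ± 0.97 and did not pass the test (edgeR, adjusted p = 0.201).

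The P7 value of Gpnmb in mSC-like cells came almost wholly from 1 sub-cluster. Its 680 cells, led by Lgals3 (galectin-3) and Pmel (a melanosome protein), held 106 of the 120 UMIs, or 88.3%. Only 45 of those cells had a UMI of Gpnmb, and 1 cell had 27. Gpnmb was at 14.6 CPM in that sub-cluster and between 0.133 and 0.815 CPM in the 3 other mSC-like sub-clusters of P7. Lgals3 was at 602 CPM there and at 2.19 to 4.28 CPM in those others. With that sub-cluster left out, a choice made after seeing these values, the log2 fold change of Gpnmb was 4.27 ± 1.16 and passed the test (edgeR, adjusted p = 0.0151).

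**Figure D2:**
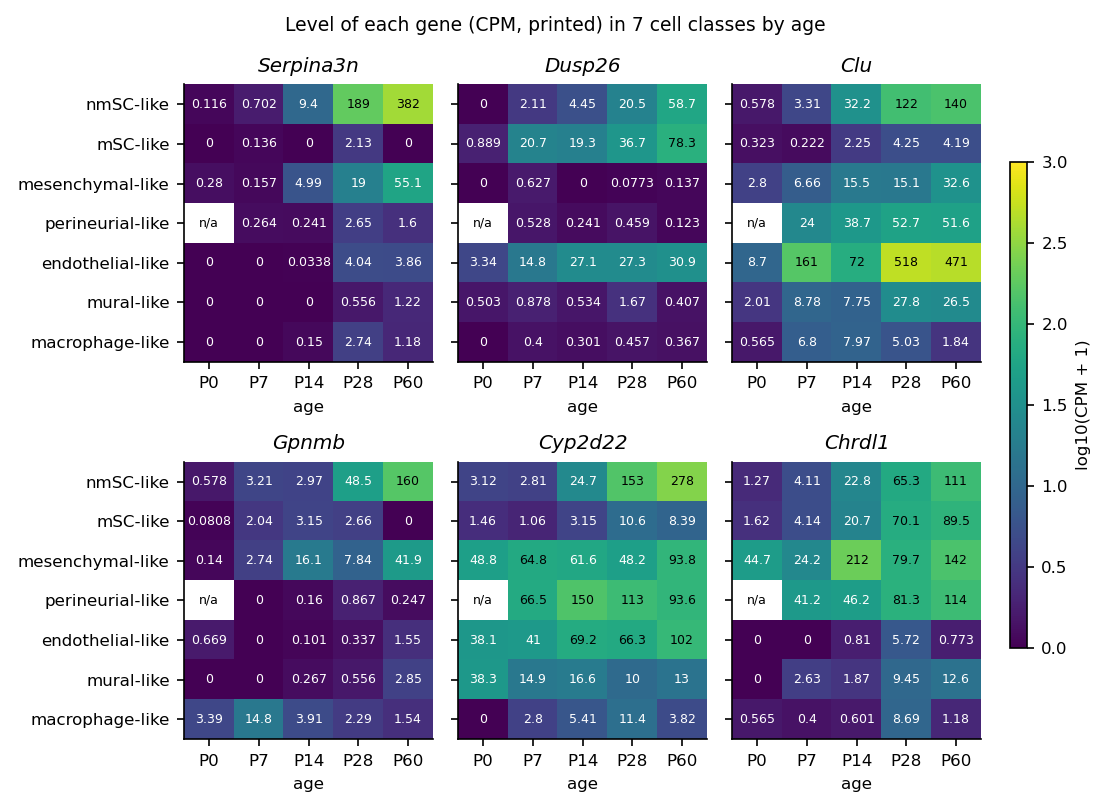
Level of each gene in 7 cell classes (rows) at 5 ages (columns), with the CPM printed in each field and the colour on a log10(CPM + 1) scale. Perineurial-like cells at P0 numbered 1 and have no value; Serpina3n stands out in the nmSC-like row, and Clu is highest in the endothelial-like row.

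Outside the Schwann lineage the genes differed in pattern. Serpina3n was higher in nmSC-like cells than in each of the other 5 classes, with log2 fold changes from 2.22 ± 0.63 over mesenchymal-like cells (adjusted p = 0.0115) to 7.97 ± 1.14 over mural-like cells (adjusted p = 4.52e-05), both by edgeR. The call against mesenchymal-like cells was lost with DESeq2 (adjusted p = 0.189), and by edgeR with no library term (adjusted p = 0.236) and without P28 (adjusted p = 0.455). Mesenchymal-like cells were the next highest class, at 19.0 CPM at P28 and 55.1 at P60. There too the level was higher at P60 than at P0 (0.280 CPM), by a ratio of 197 (54.3 to 1625). Gpnmb was higher in nmSC-like than in perineurial-like cells (5.04 ± 1.10), endothelial-like cells (6.25 ± 1.41) and mural-like cells (5.35 ± 1.51), with adjusted p-values of 0.00187, 0.00213 and 0.0122 by edgeR. Over macrophage-like cells the log2 fold change was 0.34 ± 0.99 and over mesenchymal-like cells 0.48 ± 0.94, and neither passed (edgeR, adjusted p = 0.814 and 0.743). Macrophage-like cells held their highest Gpnmb level at P7 (14.8 CPM), where nmSC-like cells had 3.21, and had 1.54 CPM at P60.

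Clu was foremost an endothelial gene in these nerves. Endothelial-like cells, the lining of blood vessels, had 8.70, 161, 72.0, 518 and 471 CPM from P0 to P60, more than nmSC-like cells at every age. The log2 fold change of nmSC-like over endothelial-like cells was -2.60 ± 0.69 (edgeR, adjusted p = 0.00667), and nmSC-like cells were higher in 0 of 3 libraries. With no library term this call was lost. Dusp26 was also lower in nmSC-like than in endothelial-like cells over P7 to P28 (-1.79 ± 0.59, adjusted p = 0.0238 by edgeR), though at P60 its order was reversed, with 58.7 against 30.9 CPM and intervals that did not overlap. In mesenchymal-like and perineurial-like cells Dusp26 did not exceed 0.627 CPM. It was higher in nmSC-like cells than in both of these classes, by 4.54 ± 0.84 and 4.30 ± 0.77 (edgeR, adjusted p = 4.67e-04 and 3.27e-04).

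Chrdl1 and Cyp2d22 were shared with the connective tissue sheaths of the nerve. Mesenchymal-like cells, the fibroblasts of the nerve, had 44.7, 24.2, 212, 79.7 and 142 CPM of Chrdl1. They were above nmSC-like cells at every age, and the log2 fold change of nmSC-like over mesenchymal-like cells was -2.50 ± 0.67 (edgeR, adjusted p = 0.00817). That call was lost without P7 and without P14 (edgeR, adjusted p = 0.0523 and 0.149), and with no library term. Perineurial-like cells, which form the sleeve around nerve fascicles, had 41.2, 46.2, 81.3 and 114 CPM of Chrdl1 from P7 on (log2 fold change -1.71 ± 0.67, edgeR, adjusted p = 0.0586). Cyp2d22 was at 48.8 CPM in mesenchymal-like cells at P0, when nmSC-like cells had 3.12, and at 93.8 at P60, when they had 278. In perineurial-like cells it was highest at P14 (150 CPM) and in endothelial-like cells at P60 (102 CPM). Its log2 fold changes over those 3 classes lay between -1.50 and -0.53, and none passed the test (edgeR, adjusted p from 0.158 to 0.655). The nmSC-like level was below those classes at P7 and P14 and above them at P28. It was higher in nmSC-like than in macrophage-like cells (2.54 ± 0.90, edgeR, adjusted p = 0.0285). That call was lost in 6 alternatives by edgeR, with adjusted p-values of 0.0582 at a clustering resolution of 0.5, 0.0668 with each library clustered alone, 0.0743 with no doublet removal, 0.0855 with no filter on low counts, 0.142 without P14 and 0.263 without P28.

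In all, the number of genes of the set higher in nmSC-like cells was 2 of 6 against mesenchymal-like cells (16.3% of all genes), 3 against perineurial-like cells (16%), 3 against endothelial-like cells (19.4%), 4 against mural-like cells (15.8%) and 4 against macrophage-like cells (23.4%). The number lower was 1, namely Chrdl1, against mesenchymal-like cells (19.5%) and 2, Dusp26 and Clu, against endothelial-like cells (19.8%). It was 0 against perineurial-like (18.8%), mural-like (15.9%) and macrophage-like cells (25%). The counts against mural-like cells were 1 without P14 and 1 without P28, with Serpina3n the gene left in both, and that against macrophage-like cells was 2 without P14. Without P28 the count of higher genes against mesenchymal-like cells was 1, namely Dusp26, since Serpina3n was lost. Without P28, Cyp2d22 was called lower against mesenchymal-like, perineurial-like and endothelial-like cells and Chrdl1 against perineurial-like cells. The Dusp26 call against endothelial-like cells was lost without P14, with each library clustered alone and with no doublet removal. It was also lost with DESeq2, with no library term and with all 5 nerve libraries.

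**Figure D3:**
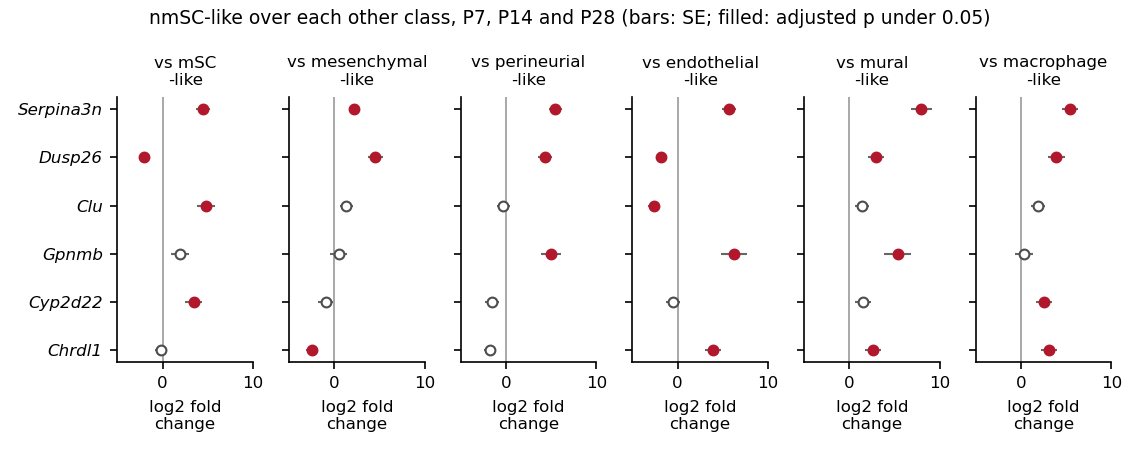
Log2 fold change of nmSC-like cells over each of 6 other classes (x axis, edgeR on sums of P7, P14 and P28) for each gene (rows), with bars for 1 SE and filled points for an adjusted p under 0.05. Serpina3n is filled and to the right of 0 in all 6 panels.

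The P60 over P0 difference was not limited to nmSC-like cells for every gene. In mSC-like cells, 3 of 3 measured genes were at least 2-fold higher at P60 (20.1% of all genes): Dusp26 with a ratio of 88.0 (45.6 to 186), Chrdl1 with 55.3 (33.0 to 96.5) and Cyp2d22 with 5.76 (1.87 to 15.2). Mesenchymal-like cells had 4 of 5 (14.2%), all but Cyp2d22, whose ratio was 1.92 (1.72 to 2.16). Endothelial-like cells had 4 of 4 (14.9%), with Clu at a ratio of 54.1 (36.9 to 83.0). Each comparison has 1 library per age, and the difference between classes in these ratios was not tested.

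The share of nmSC-like cells with at least 1 UMI of a gene was compared after drawing 2000 UMIs from each cell, which left out 37, 198, 131, 742 and 220 shallower cells from P0 to P60. At P60, Serpina3n was found in 41.8% of 730 cells (38.2 to 45.5) and Cyp2d22 in 39.6% (36.0 to 43.2). Gpnmb was found in 25.1%, Chrdl1 in 18.9%, Clu in 18.4% and Dusp26 in 11.5%. At P0 no gene of the set exceeded 0.374% of 1337 cells. Without thinning the P60 shares were 46.3% for Serpina3n, 51.5% for Cyp2d22, 30.3% for Gpnmb, 26.5% for Chrdl1, 24.3% for Clu and 16.6% for Dusp26. In macrophage-like cells of P60, with a median of 6772.5 UMIs before thinning against 3096.5 in nmSC-like cells, the thinned shares were between 0 and 0.773%, the level that free RNA could give. No gene of the set was found in most cells at this depth.

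For Clu the share of cells, like its level, was nearly the same at P28 and P60. Its thinned share was 17.7% at P28 (14.8 to 20.9) and 18.4% at P60 (15.6 to 21.4), whereas Gpnmb went from 8.36% (6.32 to 10.8) to 25.1% (21.96 to 28.4) and Dusp26 from 3.94% (2.57 to 5.77) to 11.5% (9.28 to 14.05). UMIs were unevenly spread over cells. At P60 the variance over cells divided by the mean was 1.74 for Serpina3n, 1.56 for Clu and 1.18 for Dusp26, where random sampling of equal cells gives a value near 1. The tenth of cells with the most Serpina3n held 45.4% of its UMIs, and up to 7 were drawn from 1 cell.

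The genes were found together in the same cells more often at later ages. At least 3 of the 6 were found in 0 of 1337 cells at P0, 0 of 1858 at P7 and 0 of 466 at P14, with intervals up to 0.276%, 0.198% and 0.788%. The share was 7.26% of 634 cells at P28 (5.36 to 9.56) and 22.6% of 730 cells at P60 (19.6 to 25.8). If the genes were found independently of one another, the single shares would give 4.22% at P28 and 17.5% at P60. At P60, 24.4% of cells had none of the 6, against 15.4% under independence, and 1 cell had all 6.

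**Figure D4:**
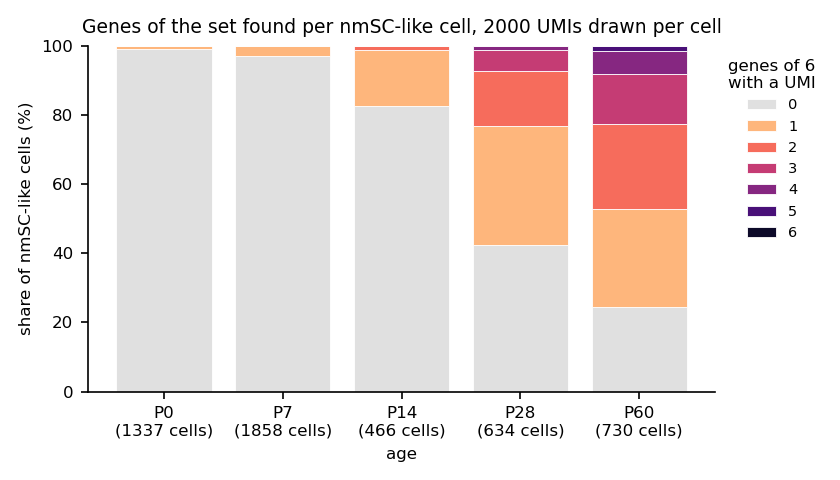
Share of nmSC-like cells (y axis, percent) with 0 to 6 of the genes found among 2000 UMIs drawn per cell, at each age (x axis, with the number of cells). Most cells had none up to P14, and 22.6% had at least 3 at P60.

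Most pairs were found together slightly more often than the product of their shares. At P60, 14 of 15 pairs had more cells with both genes than that product, with a median ratio of 1.15 and a range from 0.954 (Gpnmb and Chrdl1) to 1.59 (Serpina3n and Clu). Clu was found in 29.2% of the cells with Serpina3n and in 10.6% of the others. At P28 the same pair had the highest ratio, 1.91, and Clu was found in 33.7% of cells with Serpina3n and 12.1% of the others. Serpina3n and Clu thus had the highest ratio at both ages. Dusp26 and its partners had ratios from 1.01 to 1.14 at P60. Within the leading P60 sub-cluster alone (615 cells) the median ratio was 1.09, with 12 of 15 pairs above 1. The 3 pairs below 1 there were those of Dusp26 with Serpina3n (0.766), Gpnmb (0.808) and Clu (0.858). These are weak relations in sparse counts, and cells are not replicates.

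The nmSC-like cells of P60 lay mainly in 2 sub-clusters that differed in all 6 genes. Sub-cluster 16 held 718 cells of P60 and 24 of P28, and sub-cluster 13 held 194 cells of P60 and 1326 of P28. Within P60, Serpina3n was at 470 CPM (443 to 498) in sub-cluster 16 and at 114 (87.6 to 147) in sub-cluster 13. Gpnmb was at 198 (181 to 217) and 43.2 (27.4 to 64.8), and Clu at 175 (159 to 192) and 31.9 (18.6 to 51.1). The intervals of Dusp26, Cyp2d22 and Chrdl1 did not overlap either. In sub-cluster 13 the P60 cells had lower levels of Serpina3n and Clu than the P28 cells, which were at 195 CPM and 126 CPM. The P60 cells of sub-cluster 13 had a median of 1425.5 UMIs against 3237.5 in sub-cluster 16, 4384 against 10006 CPM of the nmSC markers, and 7915 against 3835 CPM of mesenchymal markers. The part of depth and of stray mesenchymal RNA in this difference was not tested. C3, Gpnmb, Serpina3n and Clu led sub-cluster 16 among all Schwann sub-clusters. Sub-cluster 16 held mostly P60 cells of the class in which the 6 genes were chosen as high. The lead of Gpnmb, Serpina3n and Clu thus follows from that choice, although the clustering did not use them. No test is given between clusters of 1 library.

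**Figure D5:**
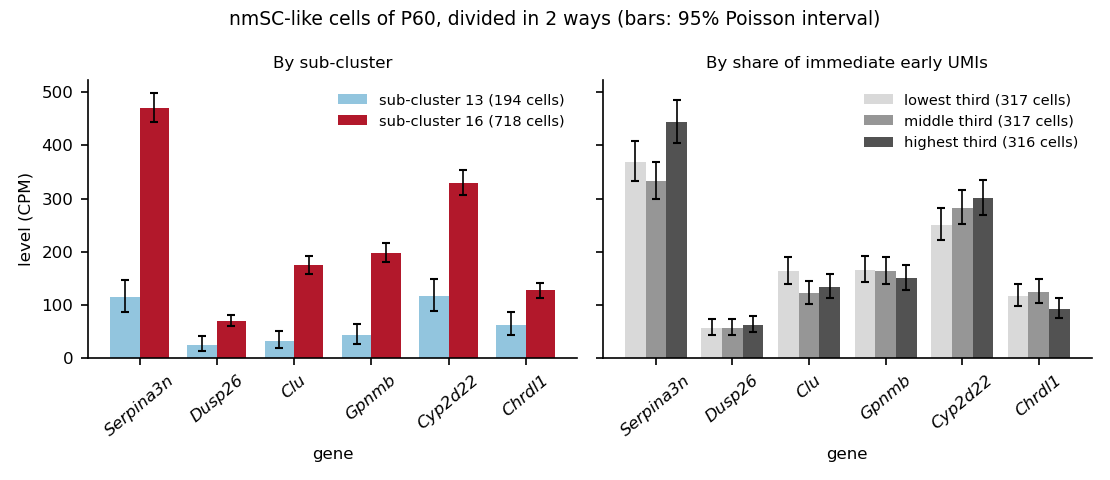
Level of each gene (CPM, y axis from 0) in the nmSC-like cells of P60, divided by sub-cluster (left) and into 3 groups by the share of immediate early UMIs per cell (right), with exact 95% Poisson intervals. Serpina3n is at 470 and 114 CPM in sub-clusters 16 and 13 and at 369, 332 and 443 CPM in the 3 groups.

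The genes with the most similar pattern over classes and ages were found by the Pearson correlation of log2(CPM + 1) over 34 sums of class and library, among 14068 genes that reached 10 CPM in at least 1 sum. The sums share libraries, so the values are descriptions. Serpina3n was most like Gm32219 (0.90), C4b (0.90) and C3 (0.86), the last 2 being complement components. Gpnmb was most like Serpina3n itself (0.81), followed by C3 (0.81) and Gm32219 (0.79). Clu was most like Gbp2 (0.88), Serpinb9 (0.86) and Tmem140 (0.85), and Cyp2d22 most like Il6st (0.91), Pkd2 (0.86) and Sh3d21 (0.86). Dusp26 was most like Fryl (0.90), Gm42572 (0.86) and P2ry2 (0.83), and Chrdl1 most like Sipa1l1, P4ha1 and Zfyve21 (0.88, 0.88 and 0.87). Among the 6 genes the correlations ran from 0.05 (Dusp26 and Chrdl1) to 0.81 (Serpina3n and Gpnmb), so that they do not form a single pattern across the cell types of the nerve.

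Related genes were followed through 14 lists, by age in nmSC-like cells and in the same test against mSC-like cells. The counts below stand beside these shares of all genes: 15.3% were at least 2-fold higher at P60 than at P0 and 11.8% at 0.5 times or below, 7.6% and 5.86% at P28 against P14, and in the class test 10.1% were higher and 9.46% lower. Of the complement list, 11 of 11 measured genes were at least 2-fold higher at P60 than at P0 in nmSC-like cells, and 6 of 11 at P28 than at P14 (15.3% and 7.6% of all genes), with a median log2 ratio of 3.37 and 1.39 beside 0.03 and -0.14 over all genes. C3, the central component of the cascade, was at 0.463, 0.201, 0.495, 260 and 887 CPM from P0 to P60, and C4b was at 0.231, 8.23, 144, 1035 and 1719 CPM. C3 was thus, like Gpnmb, near absent until P14. The list also holds C1q genes, which macrophages express. C1qc was at 4.86 CPM at P0 and 16.1 at P60, beside macrophage markers at a summed 27.8 and 99.8 CPM in the same sums, and their part in the count was not tested. C3 and C4b were low in mSC-like cells, at most 9.56 and 12.6 CPM. In the edgeR test of nmSC-like against mSC-like cells, 4 of 14 complement genes were higher and 1 lower (10.1% and 9.46% of all genes), with a median log2 fold change of 0.80 beside 0.07 over all genes. C4b was higher by 6.02 ± 0.59 (edgeR, adjusted p = 5.11e-06) and C3 by 3.99 ± 1.35 (adjusted p = 0.0486), while Cd55, a membrane inhibitor of complement, was lower by a log2 fold change of -3.36 ± 0.52 (adjusted p = 2.28e-04), each by edgeR.

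Genes of reactive glia and the acute phase had 10 of 15 measured members at least 2-fold higher at P28 than at P14 and 10 of 13 at P60 than at P0 (7.6% and 15.3% of all genes). None of them was at 0.5 times the earlier level or below, as 5.86% and 11.8% of all genes were, and the median log2 ratios were 1.33 and 2.37. Osmr, the receptor subunit for oncostatin M, was at 1.39 CPM at P0 and 72.9 at P60. Against mSC-like cells 7 of 15 were higher and 1 lower (10.1% and 9.46% of all genes, median log2 fold change 0.79). Osmr (3.24 ± 0.81, adjusted p = 0.00981) and Cp (2.98 ± 0.65, adjusted p = 0.00403) had the largest log2 fold changes among the higher ones by edgeR, and Il6ra was lower (-2.57 ± 0.65, adjusted p = 0.0104). Of the serpin list, 5 of 10 measured genes were at least 2-fold higher at P60 than at P0 and 2 at 0.5 times the level or below (median log2 ratio 0.95), beside 15.3% and 11.8% of all genes. Against mSC-like cells 1 of 12 was higher and 1 lower, near the shares of all genes. Serping1, the inhibitor of the first complement component, was at 21.9 and 519 CPM, and Serpine2, a protease inhibitor, at 276 and 110 CPM. A list of proteases held serine proteases, which serpins inhibit, and also cathepsins of other protease families. Of these genes 4 of 8 were at least 2-fold higher at P60 than at P0 and 2 at 0.5 times or below (15.3% and 11.8% of all genes), and 5 of 9 were higher against mSC-like cells (10.1%), among them the cathepsin gene Ctsl and Klk8 (3.79 ± 0.62, edgeR, adjusted p = 3.77e-04).

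Relatives of Dusp26, Gpnmb, Cyp2d22 and Chrdl1 were described in the same way. Of the dual specificity phosphatases, 3 of 17 measured genes were at least 2-fold higher at P60 than at P0 and 4 at 0.5 times the level or below (median log2 ratio 0.04), beside 15.3% and 11.8% of all genes. In the class test 8 of 18 were lower and 1 higher (9.46% and 10.1% of all genes, median log2 fold change -0.44), with Dusp15 (-4.86 ± 0.55, edgeR, adjusted p = 1.82e-05) and Dusp16 (-2.07 ± 0.26, adjusted p = 3.46e-05) among the lower ones and Dusp6 the higher one (1.28 ± 0.43, adjusted p = 0.0474). Lysosomal genes and targets of the MITF and TFE factors, which drive Gpnmb in pigment cells and macrophages, had 0 of 19 measured members at least 2-fold higher at P28 than at P14, and 2 of 19 at P60 than at P0. Of this list 6 of 20 were lower against mSC-like cells and 0 higher (median log2 fold change -0.20), among them Mitf itself (-2.40 ± 0.44, edgeR, adjusted p = 0.00108). Of 5 measured partners of GPNMB on the cell surface, 2 were at least 2-fold higher at P60 than at P0, Cd44 (21.9 and 117 CPM) and Sdc4 (301 and 740 CPM), and 2 of 6 were higher against mSC-like cells.

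Cytochromes P450 and other enzymes of drug and lipid metabolism had 6 of 16 measured genes at least 2-fold higher at P28 than at P14 and 8 of 14 at P60 than at P0 (7.6% and 15.3% of all genes). Aldh1a1, which makes retinoic acid, was at 0.810, 2.61, 13.4, 251 and 716 CPM from P0 to P60, and it was higher against mSC-like cells by 4.45 ± 0.82 (edgeR, adjusted p = 0.00114), where 2 of 20 genes of the list were higher and 2 lower, near the shares of all genes. Of the BMP antagonists 3 of 10 were at least 2-fold higher at P60 than at P0 and 3 of 11 were higher in the class test, led by Sostdc1 (2.72 ± 0.57, edgeR, adjusted p = 0.00281) and Nog, or noggin (2.38 ± 0.63, adjusted p = 0.0128). Of their receptors and targets 6 of 15 were at least 2-fold higher at P60 than at P0 and 1 at 0.5 times or below, and 4 of 16 were higher against mSC-like cells, among them Id3 (2.11 ± 0.36, edgeR, adjusted p = 5.29e-04). The BMP ligands had 0 of 2 measured genes at least 2-fold higher and 2 at 0.5 times or below, with 1 of 8 higher and 1 lower in the class test. Smoc2, another antagonist of BMPs, was at 46.0, 206 and 47.1 CPM at P14, P28 and P60. Among extracellular chaperones and apolipoproteins, 3 of 6 measured genes were at least 2-fold higher at P60 than at P0, and 2 of 9 were higher and 1 lower against mSC-like cells. Apod was at 3.35 CPM at P0, 1041 at P28 and 290 at P60, so its highest level lay at an earlier age than that of the 6 genes. Of the injury and repair genes of Schwann cells, 1 of 5 was at least 2-fold higher at P60 than at P0 (Jun, 1157 and 2401 CPM). In the same list 1 was at 0.5 times or below (Gap43, 5.21 and 2.21 CPM). These counts were near the shares of all genes, with a median log2 ratio of -0.24. Against mSC-like cells 2 of 6 were higher, Mcam and Ngfr. Ngfr is also a marker from which the nmSC-like class was named, so its difference was built into the classes. Of the 10 immediate early genes 3 were higher against mSC-like cells and 0 lower.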

How the data were processed

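Tissue was dissociated with collagenase IV and papain at 37 °C, with lysis of red cells and bead removal of dead ones, per the labels' protocols. The deposited values are UMI counts per gene and cell barcode, made with Cell Ranger 5.0.1 (P0, P14, P28 and P60) or 7.0.0 (P7), per the file headers. Seurat and the build mm9 are named, per the submitters' processing notes, but the gene identifiers match GENCODE M21 (GRCm38). Whether introns were counted is not given in the sources used here. A dorsal root ganglion library was not analysed here. Barcodes with at least 300 genes, 500 UMIs and at most 20% mitochondrial UMIs were kept, and doublets were removed with Scrublet (at P0, where its own threshold called 0%, the top 8% of scores). Cells of the 5 libraries were clustered together (scanpy 1.11.5, Python 3.11.15: 2000 variable genes, 30 components, 15 neighbours, Leiden resolution 1), without batch correction and without the 6 genes and the list genes. Clusters were named from marker lists, with a minimum score of 0.2 and a rule against clusters led by replication genes, both set after the clusters were seen. UMIs of each class were summed per library, and CPM and Poisson, binomial and ratio intervals (95%, exact) were computed. For the fold of Dusp26 at P60 over P0, the count of 0 was set at 3 UMIs. UMIs remove PCR copies, so intervals cover sampling of molecules and not variation between animals. Classes were tested with edgeR 4.0.16 (R 4.3.3; TMM, filterByExpr, robust quasi-likelihood fit, class and library as terms, Benjamini-Hochberg adjustment, threshold 0.05) on 21 sums of 7 classes in P7, P14 and P28, and SE is the log2 fold change divided by the root of F. The fit was checked on simulated counts. Alternatives were DESeq2 1.42.0, other scaling, filters, clustering, doublet handling, libraries and thinning. The genes named beside the 6 were, per list, up to 2 higher and 2 lower with the largest log2 fold changes, up to 2 with the largest and smallest ratios by age, and the 3 most alike in pattern. Lgals3 was chosen after its values were seen. The members and lists were chosen with earlier results of these data known. Promoters were at hand for 2 of the 6 genes.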

Additional observations from a re-analysis of the deposited data

Results flagged for a closer look

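Between P14 and P28 and between P0 and P60, the 2 pairs of ages examined for this, there were 5 cases in which the interval of a ratio lay above 1 in nmSC-like cells and below 1 in another class. From P14 to P28 the ratio in mesenchymal-like cells was 0.488 for Gpnmb, 0.783 for Cyp2d22 and 0.375 for Chrdl1, beside 16.3, 6.17 and 2.87 in nmSC-like cells. Over the same ages Cyp2d22 had a ratio of 0.754 in perineurial-like cells. From P0 to P60 Cyp2d22 had a ratio of 0.341 in mural-like cells, the contractile cells of vessels, beside 89.0 in nmSC-like cells. Other pairs of ages hold such cases too and were not searched in full. From P28 to P60 Chrdl1 had a ratio of 1.71 in nmSC-like cells and 0.135 in endothelial-like and in macrophage-like cells. Over those ages Cyp2d22 had 1.82 in nmSC-like, 0.334 in macrophage-like and 0.827 in perineurial-like cells. From P0 to P7 Chrdl1 had 3.23 in nmSC-like and 0.541 in mesenchymal-like cells. There is 1 library per age, and the difference between classes was not tested.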

How the results depend on the processing

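All 6 genes were at least 2-fold higher at P60 than at P0 and highest at P60 under each of 7 alternatives. Over all alternatives, 92 of 105 values that answer a comparison stayed close and 13 moved. The 92 include the P60 results above under all 7 alternatives, which rest on the contrast that chose the genes. A count was taken as close within a set fold of the main count, whichever genes made it up. With each library clustered alone, 3 genes were still higher than in mSC-like cells, but with Gpnmb in place of Cyp2d22. The share of P60 cells with at least 3 of the genes was 29.8% with each library clustered alone, 25.8% with a stricter filter, 6.73% with 1000 UMIs drawn and 34.2% with no thinning, beside 22.6%, so it depends on depth. The count of genes higher against mesenchymal-like cells was 1 with DESeq2 and 1 with no library term. With no doublet removal it was 2 against mural-like and 2 against macrophage-like cells. Leaving out 1 library gave counts of 1 to 3 (mSC-like), 1 to 2 (mesenchymal-like), 3 to 3 (perineurial-like and endothelial-like), 1 to 5 (mural-like) and 2 to 5 (macrophage-like). The log2 fold change of Chrdl1 over mSC-like cells turned to 0.042 with scaling by total UMIs only, which moved the median of all genes from 0.07 to 0.33 and the genes called higher and lower from 1514 and 1422 to 2545 and 868 (3820 and 2272 against mesenchymal-like, 4902 and 2689 against macrophage-like cells). With no library term 787 and 737 genes were called against mSC-like cells, and 748 to 970 higher with 1 library left out. Gpnmb passed that test in 7 alternatives, among them the other clustering resolutions (log2 fold change 4.57 and 5.11), and the cause was not tested. Dusp26 lost its call in 5 alternatives and Cyp2d22 in 4. Leaving out the Lgals3-led cells was an alternative chosen after seeing the data. No paired analysis was possible between ages because each age has 1 library; the class tests have library as a term.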
